A study of Bos taurus with 31 samples.

Results

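Genes through which mammary epithelium senses oestrogen and progestins were followed through 31 RNA sequencing libraries of bovine mammary organoids. They are the 10 rows, of 14084 in the count table, named for the oestrogen receptor ESR1, the membrane progestin receptor PAQR7, the receptor's transcriptional partners FOXA1, GATA3 and CITED1, and the genes GREB1, MYB, PDZK1, CCND1 and TFF3, which respond to the receptor in other systems. The names were chosen by role and by their measured difference between lactating and virgin libraries, which was already known, so that difference is described below and carries no test. Variation among animals within a stage was not used in the choice and was tested.

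Oestrogen receptor alpha is a ligand-activated transcription factor. In the mammary gland it is found in a subset of luminal cells, where FOXA1 opens chromatin for it and GATA3 acts with it, and these cells pass the signal on to their neighbours through secreted factors. Progesterone acts through nuclear receptors and through membrane receptors of the PAQR family. Both hormones drive growth of ducts and alveoli before lactation, while milk secretion is maintained mainly by other hormones.

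The organoids are clumps of epithelium left after collagenase digestion of gland biopsies from dairy cows and repeated slow spins. There were 16 libraries from lactating cows 40 to 60 days into lactation and 15 from virgin heifers at 14 months of age, out of 16 animals in all. Of these, 15 gave both stages, and the animal of L495 gave only a lactating library. A library is named here by its stage and animal, so that L507 and V507 are the lactating and the virgin library of 1 cow. The sources used here give neither the breed nor the phase of the oestrous cycle or pregnancy at biopsy. Stage cannot be told apart from age, parity and time of sampling, also within an animal.

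Total counts were 26827018 to 72138358 in lactating and 20128378 to 60114505 in virgin libraries. All 10 genes passed the filter on low counts, which kept 13180 rows. Levels are given as CPM, which are counts over a library size scaled by the TMM method, and differences as log2 fold changes of lactating over virgin with their standard error (SE). A row was called when its edgeR quasi-likelihood test had a Benjamini-Hochberg adjusted p under 0.05. Of all rows, 30.9% were called lower and 24.2% higher in lactating libraries, with a median log2 fold change of -0.08. Of the 10 genes, 8 were called lower (ESR1, PAQR7, FOXA1, CITED1, GREB1, MYB, PDZK1 and CCND1), TFF3 was called higher and GATA3 was not called. Because the choice used this contrast, nothing is read from these shares. Levels are not compared between genes, since reads were counted over loci that include introns and the deposited lengths are not transcript lengths.

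**Figure D1:**
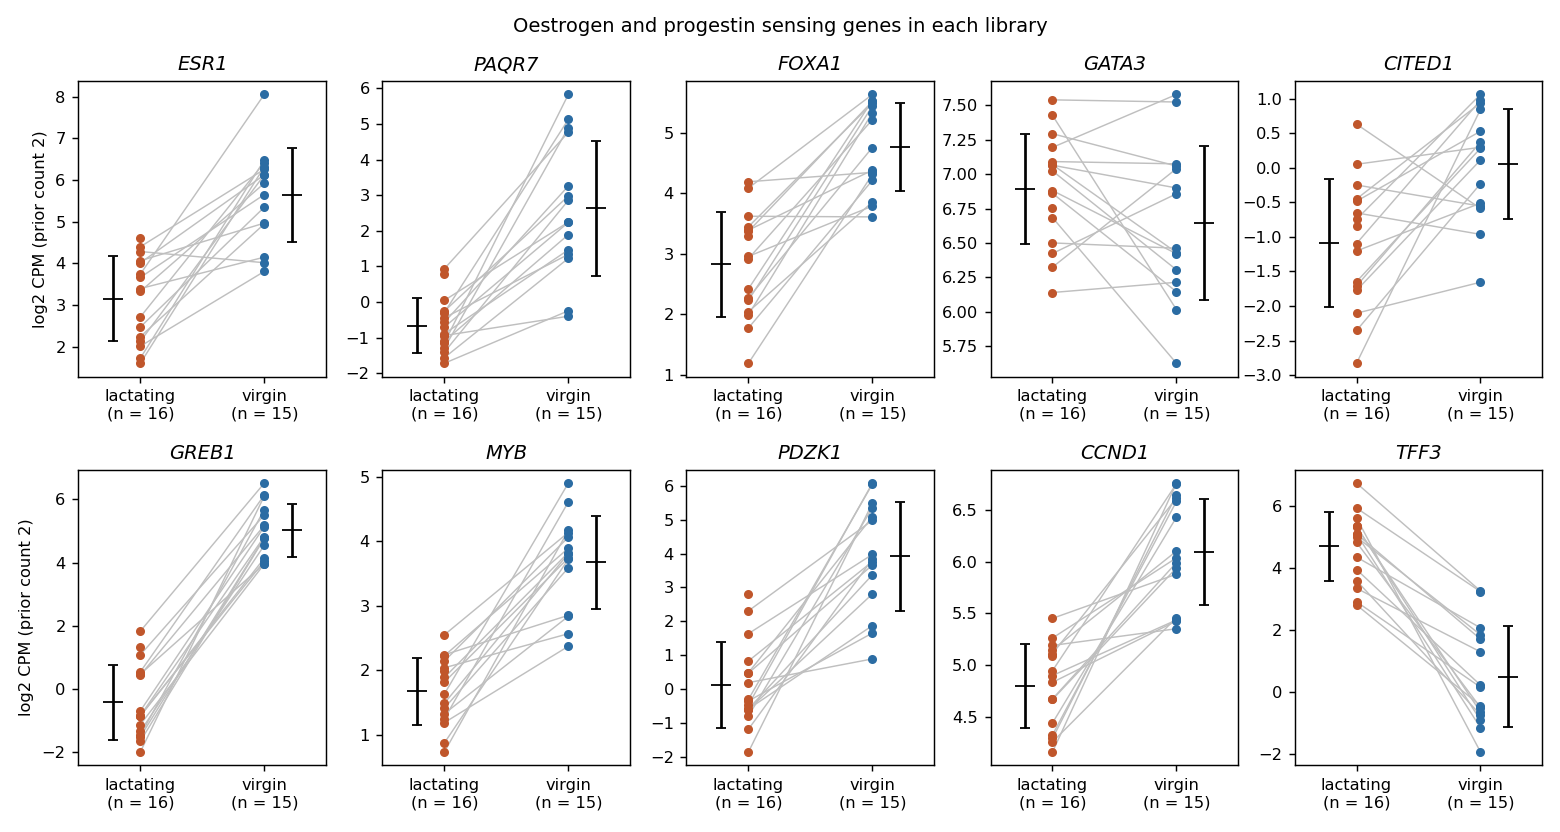
Level of each of the 10 genes in every library, as log2 CPM with a prior count of 2, in lactating (n = 16) and virgin (n = 15) libraries. Grey lines join the libraries of 1 animal, and black bars give the mean and SD. GREB1 is the single gene whose stages do not overlap, with lactating libraries at 0.201 to 3.51 CPM and virgin libraries at 15.5 to 91.3 CPM, and TFF3 is the gene that is higher in lactating libraries of all 15 animals.

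Of the receptors, ESR1 (ENSBTAG00000007159) was lower in the lactating than in the virgin library of 14 of 15 animals. Its lowest, median and highest levels were 2.98, 10.2 and 24.5 CPM in lactating libraries, against 13.9, 60.5 and 264.8 CPM in virgin libraries. The stages overlapped, with 5 lactating libraries above the lowest virgin one. The log2 fold change was -2.59 ± 0.38 (SE). The highest virgin level, in V581, lay far above the others, and the log2 fold change was -2.27 without that library. The exception was the animal with 19.4 CPM in L615 and 16.1 CPM in V615.

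PAQR7 (ENSBTAG00000021787), a membrane receptor for progestins, was the gene of the 10 that varied most among virgin animals. Its levels were 0.253, 0.526 and 1.86 CPM (lowest, median and highest) in lactating libraries, against 0.708, 4.68 and 56.7 CPM in virgin libraries. The SD of log2 CPM was 0.77 among lactating and 1.89 among virgin libraries. It was lower in lactation in 15 of 15 animals, as were GREB1, MYB, PDZK1 and CCND1 and 5.52% of all rows, with differences between -6.97 (L507 minus V507) and -0.54 (L509 minus V509) on the log2 scale. Its log2 fold change was -4.23 ± 0.55 (SE), but -3.47 with the animal as a block and -3.34 with limma-voom. The lactating counts were low, at 8 to 82 reads per library.

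The receptor's partners did not share 1 pattern. FOXA1 (ENSBTAG00000013888), a pioneer factor that opens chromatin, had lowest, median and highest levels of 2.23, 7.61 and 18.2 CPM in lactating libraries, against 12.1, 26.9 and 49.5 CPM in virgin libraries. The ranges overlapped in 3 lactating and 3 virgin libraries. Its log2 fold change was -1.87 ± 0.27 (SE), and the smallest differences within an animal were -0.16 (L538 minus V538) and 0.01 (L615 minus V615).

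GATA3 (ENSBTAG00000017243), a transcription factor of luminal cells, stood at 70.4, 124.0 and 186.2 CPM in lactating libraries, against 49.3, 88.1 and 191.3 CPM in virgin libraries. The ranges overlapped almost entirely. Its log2 fold change was 0.20 ± 0.17 (SE), with a higher lactating level in 11 of 15 animals, and it was -0.21 without TMM scaling. It was thus the single gene of the 10 whose log2 fold change between the stages changed sign without TMM scaling.

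CITED1 (ENSBTAG00000045925), a coactivator that binds the oestrogen receptor, was counted in 2 to 71 reads per lactating and 16 to 115 reads per virgin library. Its levels were 0.0891, 0.461 and 1.49 CPM in lactating libraries, against 0.265, 1.16 and 2.03 CPM in virgin libraries. It was lower in lactation in 12 of 15 animals, with a log2 fold change of -1.11 ± 0.31 (SE). At a filter of 1 CPM in 15 libraries it was not tested.

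Among the responsive genes, GREB1 (ENSBTAG00000015402), a cofactor of the receptor induced by oestrogen in human breast cancer cells, had the widest gap between the stages. Its lowest, median and highest levels were 0.201, 0.506 and 3.51 CPM in lactating libraries, against 15.5, 28.3 and 91.3 CPM in virgin libraries. Every lactating library was below every virgin one, which held for 103 of the 13180 rows (0.781%), while 1.15% of rows had every lactating library above every virgin one, as none of the 10 genes did. The log2 fold change was -5.23 ± 0.42 (SE), or 37.6-fold lower, the 4th lowest of all tested rows. The smallest difference within an animal was -3.49 (L509 minus V509).

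PDZK1 (ENSBTAG00000005810), a scaffold protein with PDZ domains, had the next largest difference among the responsive genes that were lower. Its levels were 0.223, 0.742 and 6.87 CPM in lactating libraries, against 1.80, 14.2 and 67.6 CPM in virgin libraries. The lowest virgin library, V509, lay below 3 lactating ones. Its log2 fold change was -3.93 ± 0.53 (SE), and it was lower in lactation in 15 of 15 animals. The lactating counts went down to 5 reads per library.

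MYB (ENSBTAG00000012074), a transcription factor that oestrogen induces in human breast cancer cells, had levels of 1.61, 3.26 and 5.80 CPM in lactating libraries, against 5.13, 13.9 and 29.8 CPM in virgin libraries. The ranges touched in 1 library of each stage, and the log2 fold change was -2.09 ± 0.22 (SE). CCND1 (ENSBTAG00000017514), cyclin D1, which starts the cell cycle with CDK4 and CDK6, had levels of 17.8, 29.1 and 43.7 CPM in lactating libraries, against 40.8, 65.7 and 108.6 CPM in virgin libraries. Here 1 lactating library lay above the lowest virgin one, and the log2 fold change was -1.33 ± 0.16 (SE). Both genes were lower in lactation in 15 of 15 animals. The locus counted for CCND1 was 2.69 times the RefSeq span of the gene, so reads of other transcripts may be included.

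TFF3 (ENSBTAG00000021276), a secreted trefoil peptide that oestrogen induces in human breast cancer cells, was higher in lactation, in 15 of 15 animals, as were 7.41% of all rows. Its levels were 6.94, 33.0 and 106.0 CPM in lactating libraries, against 0.211, 1.07 and 9.51 CPM in virgin libraries. Only V479 (9.51 CPM) and V509 (9.38 CPM) reached the lowest lactating libraries, L538 and L478 (7.46 CPM). The log2 fold change was 3.73 ± 0.52 (SE), or 3.13 without TMM scaling, with differences within animals of 2.05 (L581 minus V581) to 7.54 (L468 minus V468). The counted locus was 3.18 times the RefSeq span, and its neighbours in the RefSeq table are ABCG1 and TFF2.

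**Figure D2:**
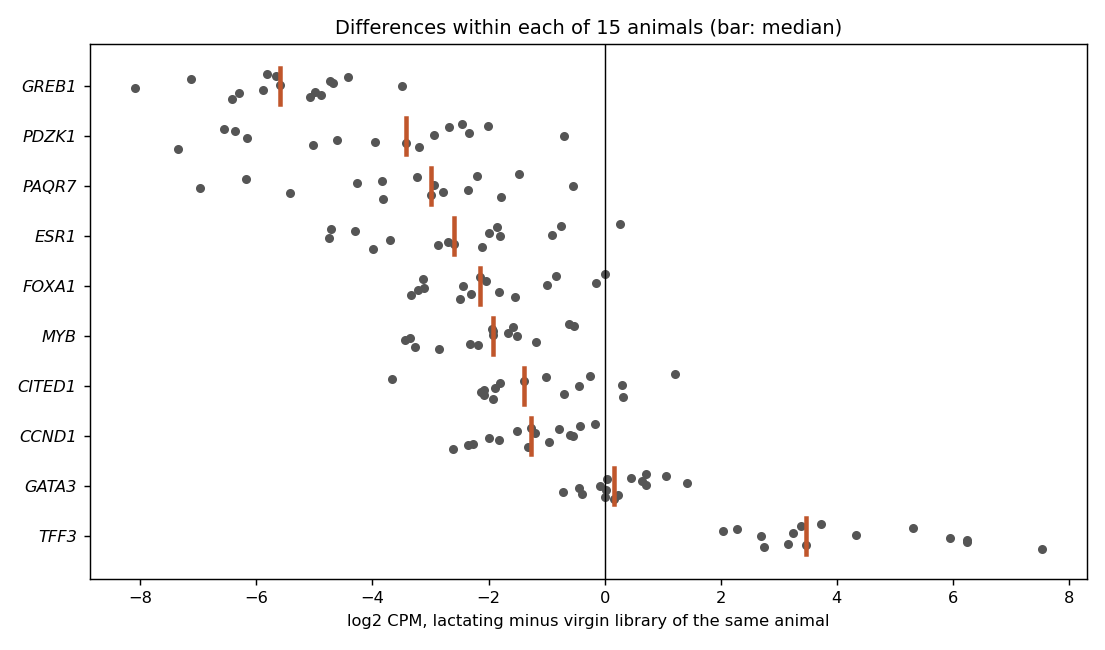
Difference in log2 CPM between the lactating and the virgin library of the same animal, 1 point for each of the 15 animals with both stages, with the median as a bar. GREB1 (median -5.59) has every point below -3, TFF3 (median 3.47) has every point above 2, and the points of GATA3 (median 0.17) lie on both sides of 0.

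The size of these differences varied among animals. For ESR1 the difference was -4.75 between L507 and V507, -4.71 between L595 and V595 and -4.31 between L581 and V581, but -0.75 between L610 and V610 and 0.27 between L615 and V615. Between L615 and V615 the differences of GREB1 and PDZK1 were -5.83 and -2.46. Relative to the luminal markers described below, ESR1 was lower in lactation in 15 of 15 animals. The direction of ESR1 between L615 and V615 thus depended on the scaling.

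The levels of cell type markers differed between the stages as well. The organoids expressed the epithelial markers in every library, with summed levels of 10 luminal genes at 1745 to 5079 CPM in lactating and 2616 to 12453 CPM in virgin libraries. Of these 10, 6 were called lower and 4 were not called (median log2 fold change -0.75), and EPCAM stood at -0.11. Of 9 basal markers, counted over 8 distinct loci since KRT14 and KRT17 carry identical counts, 2 loci were called higher and 2 lower. Markers of endothelium were called higher in 8 of 8 cases (240 to 1611 CPM summed in lactating, 33.7 to 721 CPM in virgin libraries), of lymphocytes in 8 of 8 (37.0 to 91.0 CPM in lactating, 5.76 to 52.5 CPM in virgin libraries) and of macrophages in 7 of 8 (110.5 to 554 CPM in lactating, 15.1 to 63.7 CPM in virgin libraries). The summed macrophage level rested mostly on CD14, which averaged 208 CPM in lactating and 19.0 CPM in virgin libraries. The locus counted for CD14 was 25.9 times its RefSeq span, so reads of other transcripts may be included. Of fibroblast markers, 2 of 8 were called higher and 4 lower. Of the lower ones, COL1A1, COL1A2 and COL3A1 were lower in 7, 6 and 7 of 15 animals, and the summed fibroblast level was 21440 CPM in V502, against 2349 CPM in the next virgin library. Of adipocyte markers, 2 of 4 were called higher and 1 lower. All 7 milk protein genes were called higher, and CSN1S2, PAEP and GLYCAM1 were the markers at 0 in some library. In these bulk samples fewer hormone-sensing cells and less RNA per cell cannot be told apart.

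Set against the mean of the 10 luminal markers in the same library, ESR1 was lower in lactation in 15 of 15 animals (mean difference -1.89 on the log2 scale). The same ratio differed by -4.83 for GREB1, -3.21 for PDZK1, -2.69 for PAQR7, -1.40 for MYB and -1.34 for FOXA1. CITED1 (-0.55, lower in 8 of 15 animals) and CCND1 (-0.70, lower in 13) were closer to the luminal markers. GATA3 stood 0.85 higher, in 13 of 15 animals, and TFF3 4.80 higher.

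Within a stage, the genes were compared across animals, which had not been used to choose them. In virgin libraries PDZK1 was the gene of the 9 others that tracked ESR1 past the threshold, with Pearson r = 0.88 (n = 15; permutation p = 1e-05, the smallest that 100000 resamples can give; adjusted p = 0.0120 over 13179 rows). Of all rows, 0.486% were called with a positive and 0.235% with a negative correlation. Spearman's rho was 0.85 (permutation p = 1.7e-04, adjusted p = 0.0926), and by rho 0 rows were called in either direction, while 5 of the 9 genes and 12.7% of all rows had a positive rho at an unadjusted permutation p under 0.05. Without V509 and V581, the libraries farthest from the median of ESR1, r was 0.85 and the call was lost (permutation adjusted p = 0.126, n = 13). In that subset 0 of all rows were called. Leaving out any 1 library gave r between 0.85 and 0.92.

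FOXA1 (r = 0.76, permutation adjusted p = 0.0551), PAQR7 (0.72, adjusted p = 0.0847), MYB (0.66, adjusted p = 0.108) and CCND1 (0.66, adjusted p = 0.110) were positively correlated with ESR1 in virgin libraries but missed the threshold. Their Spearman's rho was 0.78, 0.67, 0.69 and 0.60. CITED1 had r = 0.55 and GATA3 r = 0.40. GREB1, the gene furthest apart between the stages, had r = 0.24 with ESR1 in virgin libraries (permutation p = 0.389, adjusted p = 0.605), and TFF3 had r = -0.23. In the virgin library with most ESR1, V581, GREB1 stood at 36.1 CPM, while the highest GREB1 level, 91.3 CPM, was in V538, where ESR1 was at 50.1 CPM.

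In lactating libraries CITED1 was the gene called with ESR1 (r = 0.84, n = 16, permutation p = 4e-05, adjusted p = 0.0479), against 0.0835% of rows called positive and 0 called negative. Its rho was 0.81 (permutation adjusted p = 0.180). The call was lost without L507 and L595, the libraries farthest from the ESR1 median (r = 0.79, permutation adjusted p = 0.313), and also without L478 and L538 (r = 0.83, permutation adjusted p = 0.180). In both subsets 0 of all rows were called. FOXA1 had the higher r of 0.86, with a rho of 0.79, and by r narrowly missed the threshold (permutation p = 6e-05, adjusted p = 0.0565). The unadjusted p-values of CITED1 and FOXA1 each rest on a few of the resamples. The call of CITED1 and the miss of FOXA1 therefore do not set these genes apart. MYB followed with r = 0.69, PDZK1 with 0.66, GREB1 with 0.61, GATA3 with 0.48, PAQR7 with 0.47 and CCND1 with 0.15, and TFF3 had r = -0.51. None of these 7 passed the adjusted threshold. A test of the difference between the stages in any of these correlations was not made.

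**Figure D3:**
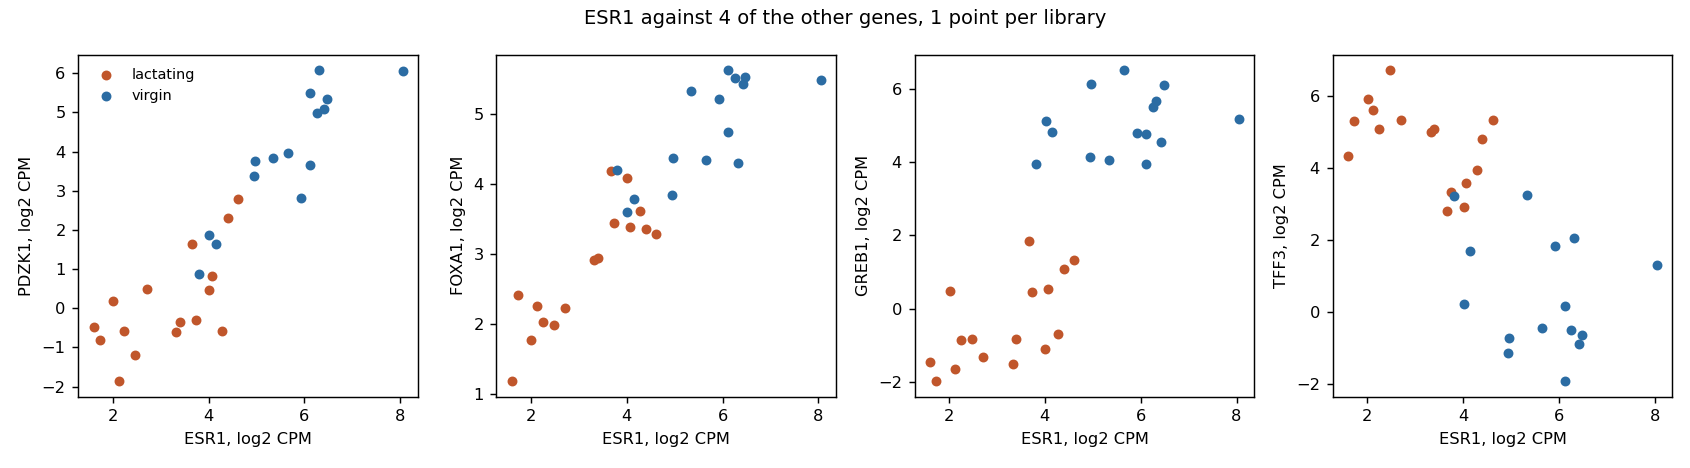
Level of PDZK1, FOXA1, GREB1 and TFF3 against that of ESR1, both as log2 CPM, with 1 point per lactating or virgin library. For PDZK1 and FOXA1, r was 0.66 and 0.86 in lactating and 0.88 and 0.76 in virgin libraries, of which PDZK1 in virgin libraries alone passed the adjusted permutation test, while GREB1 forms separate bands for the stages (r = 0.61 in lactating and 0.24 in virgin libraries).

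The lactating libraries also differed in how much of their RNA came from milk protein genes. With each locus counted once, that share was 0.243% to 0.577% in L538 and L478, 5.13% to 11.4% in 5 libraries and 26.1% to 51.5% in 9 libraries. From the lowest range to the highest, ESR1 stood at 12.6 to 16.1, 6.504 to 19.4 and 2.98 to 24.5 CPM (medians 14.3, 13.3 and 4.67). The highest range thus held both the lowest lactating ESR1 level, in L595, and the highest, in L495 and L598. FOXA1 stood at 16.9 to 18.2, 4.64 to 12.2 and 2.23 to 10.3 CPM (medians 17.5, 10.4 and 4.77). Within the 9 libraries of the highest range, ESR1 had r = 0.89 with FOXA1, 0.85 with PAQR7, 0.84 with PDZK1, 0.80 with GREB1, 0.78 with CITED1, 0.73 with MYB, 0.33 with GATA3, 0.21 with CCND1 and -0.11 with TFF3, with adjusted p = 1 for each over all rows (exact permutation test, unadjusted p = 0.00105 for FOXA1). Relative to the luminal markers, PDZK1 had r = 0.85 with ESR1 in virgin libraries (unadjusted permutation p = 1e-04) and FOXA1 had r = 0.80 in lactating ones (unadjusted permutation p = 2.7e-04). The same luminal mean was subtracted from both genes of a pair, which can itself raise r, and the permutation did not allow for it. On this relative scale 0 of the 9 genes were called in either stage, as were 0 of all 13179 rows. That count therefore does not set these genes apart. The part of cell make-up in these correlations was not tested.

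TFF3 followed the opposite order across these milk ranges. It stood at 6.94 and 7.46 CPM in the lowest range, at 10.1 to 40.4 CPM (median 15.4) in the middle one and at 20.3 to 106.0 CPM (median 39.7) in the highest. Because the libraries fall into separate ranges, the correlation reported is the one within the 9 libraries of the highest range. There TFF3 had r = 0.63 with the log2 ratio of milk protein counts to other counts (exact permutation p = 0.0677, adjusted p = 0.519; rho 0.27, exact permutation p = 0.493). Without L479 and L595, r was -0.48, so the relation rests on these libraries. Of the 10 genes 0 were called, as were 0 of all 13180 rows, and 0 of the 10 had an unadjusted exact permutation p under 0.05, against 10.3% of all rows. ESR1 had r = 0.08 in the same libraries.

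**Figure D4:**
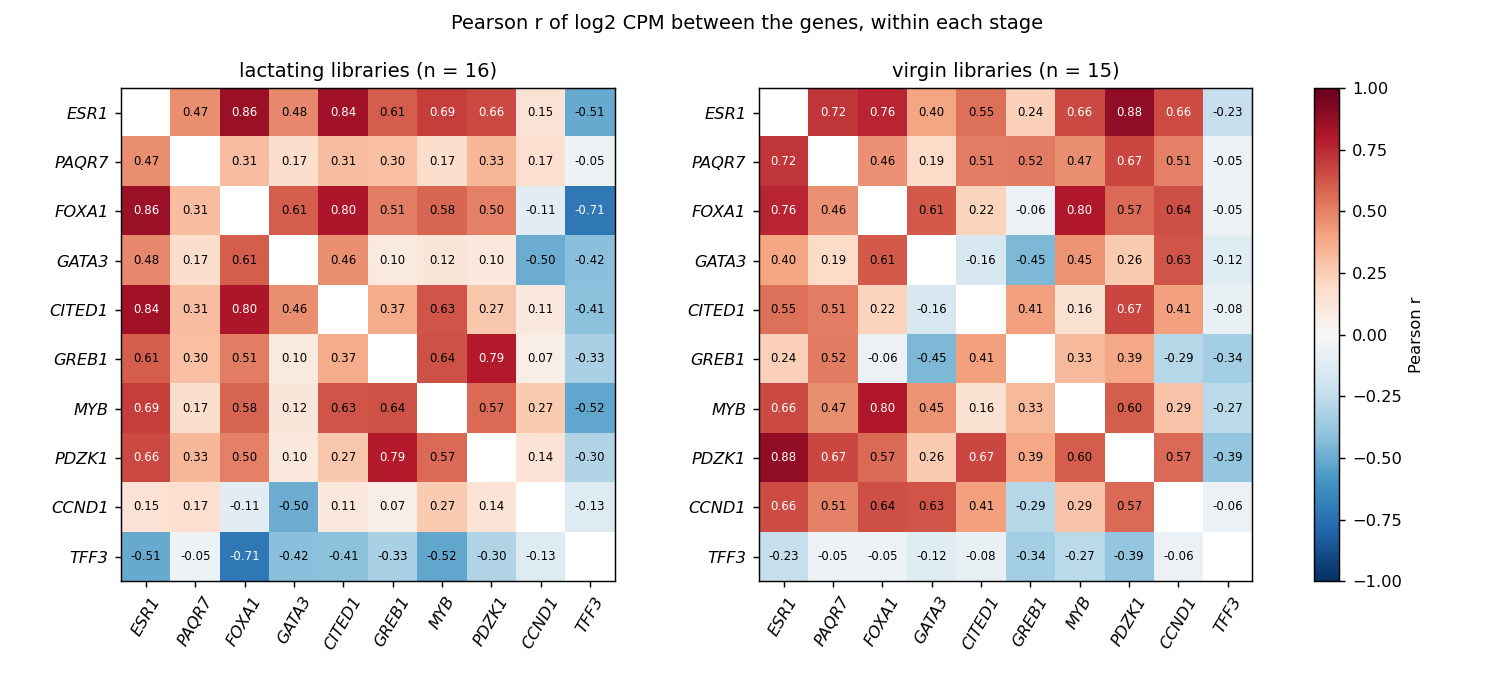
Pearson r between the log2 CPM of each pair of the 10 genes, within lactating libraries (n = 16, left) and within virgin libraries (n = 15, right). Apart from TFF3, most pairs are positive (34 of 36 in lactating and 32 of 36 in virgin libraries), and TFF3 is negative with each of the 9 others in both stages.

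Among themselves the 9 genes other than TFF3 had a median pairwise r of 0.35 in lactating and 0.49 in virgin libraries, as a description over pairs that share libraries. FOXA1 with MYB (0.80) and ESR1 with PDZK1 (0.88) were the strongest pairs in virgin libraries. GREB1 with PDZK1 reached 0.79 in lactating libraries, against 0.39 in virgin ones. GATA3 was at -0.50 with CCND1 in lactating libraries and at 0.63 in virgin ones, and at -0.45 with GREB1 in virgin libraries. TFF3 ranged from -0.71 (with FOXA1) to -0.05 in lactating libraries and from -0.39 (with PDZK1) to -0.05 in virgin libraries.

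Some libraries were low or high for many of the genes at once. V509 was among the 3 lowest virgin libraries for 7 of the 10 genes and the lowest for 4 of them, and it had the highest milk protein share of the virgin libraries, 0.682%. V615 was likewise among the 3 lowest for 7 genes, and V507 among the 3 highest for 5. Of the lactating libraries, L595 was the lowest for ESR1, FOXA1 and CITED1, and L495 the highest for ESR1 and PDZK1. Without V509 and V502 the correlation of GREB1 with ESR1 in virgin libraries was 0.02, and that of PDZK1 was 0.85 (permutation adjusted p = 0.0191).

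An animal's level as a heifer was then compared with its level in lactation. Pearson r over the 15 animals ranged from -0.32 for CCND1 to 0.36 for PAQR7, and was -0.02 for ESR1 and 0.35 for GREB1. Of the 10 genes 0 were called and 0 had an unadjusted permutation p under 0.05, by r or by rho, against 12.2% of all rows by r at that threshold, while 0.341% of all rows were called with a positive r and 0.0607% with a positive rho. With 15 animals such a result does not show that the stages are unrelated.

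The genes whose levels moved most like a member were listed after removal of the stage means, over all 31 libraries and 8463 genes, as a description. For ESR1 these were SERPINA5 (r = 0.85), a serpin protease inhibitor, SULT1C4 (0.84), a cytosolic sulfotransferase, KYNU (0.83), an enzyme of tryptophan breakdown, DMGDH (0.83), a mitochondrial dehydrogenase, and FOXA1 (0.81). PDZK1 ranked 9th and MYB 35th. For GREB1 they were CHST8 (0.79), a carbohydrate sulfotransferase, KCNE3 (0.72), a potassium channel subunit, and OTUB2 (0.70), a deubiquitinase, and ESR1 ranked 359th. For PAQR7 they were CAMK1D (0.67), a calcium-dependent kinase, AQP5 (0.65), a water channel, and SMPD3 (0.64), a sphingomyelinase. Those 3 rested on virgin libraries, where r was 0.71 to 0.78, against 0.25 to 0.29 in lactating ones. For TFF3 they were the milk protein genes CSN1S1 (0.79), LALBA (0.78) and GLYCAM1 (0.78). Their r was 0.81 to 0.85 in lactating and 0.75 to 0.79 in virgin libraries. The lactating libraries were pooled here over the separate milk ranges given above. Within the highest range the correlation of TFF3 with milk protein counts was not called.

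The wider steroid hormone pathway was read from 5 lists of 100 other genes, of which 85 were in the table and 81 were tested. Of these, 28 were called higher and 23 lower in lactation and 30 were not called, with a median log2 fold change of -0.003, close to that of all rows. Without TMM scaling 7 were higher and 44 lower. Of 9 further receptors and steroid sensors, 3 were lower, 2 higher and 4 not called. ESRRG, an oestrogen-related orphan receptor, averaged 7.26 ± 4.06 CPM in lactating and 21.97 ± 13.9 CPM in virgin libraries (SD, n = 16 and 15) and fell by 1.60 ± 0.32 on the log2 scale, in 12 of 15 animals (edgeR adjusted p = 8.35e-05). NR3C1, the glucocorticoid receptor, rose by 0.83 ± 0.14, against 0.31 and no call without TMM scaling. PGRMC1, a membrane-associated progesterone receptor component, rose by 0.42 ± 0.08, against -0.04 and no call without TMM scaling. PAQR5, a membrane progestin receptor related to PAQR7, fell by 3.22 ± 0.26 at 0.0958 CPM in lactating and 0.953 CPM in virgin libraries. It was picked for mention after its value was seen. PAQR6 and PAQR8, of the same family, stood at -0.29 ± 0.13 and -0.24 ± 0.22 and were not called. Their loci were 6.94 and 11.9 RefSeq spans. PGRMC2, at -0.12 ± 0.11, was not called either. The nuclear progesterone receptor and the second oestrogen receptor were not analysed here.

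Of 19 partners and coregulators, 5 were higher, 3 lower and 11 not called. TBX3, a T-box factor of hormone-sensing luminal cells in mice, averaged 52.8 ± 11.4 CPM in lactating and 137 ± 44.6 CPM in virgin libraries and fell by 1.38 ± 0.15 (edgeR adjusted p = 5.98e-09, lower in 15 of 15 animals). SPDEF, an epithelial transcription factor, fell by 1.23 ± 0.30, and was not tested at the filter of 1 CPM. CITED2, a relative of CITED1, rose by 0.79 ± 0.22 and NCOA2, a nuclear receptor coactivator, by 0.78 ± 0.15. Without TMM scaling neither was called.

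**Figure D5:**
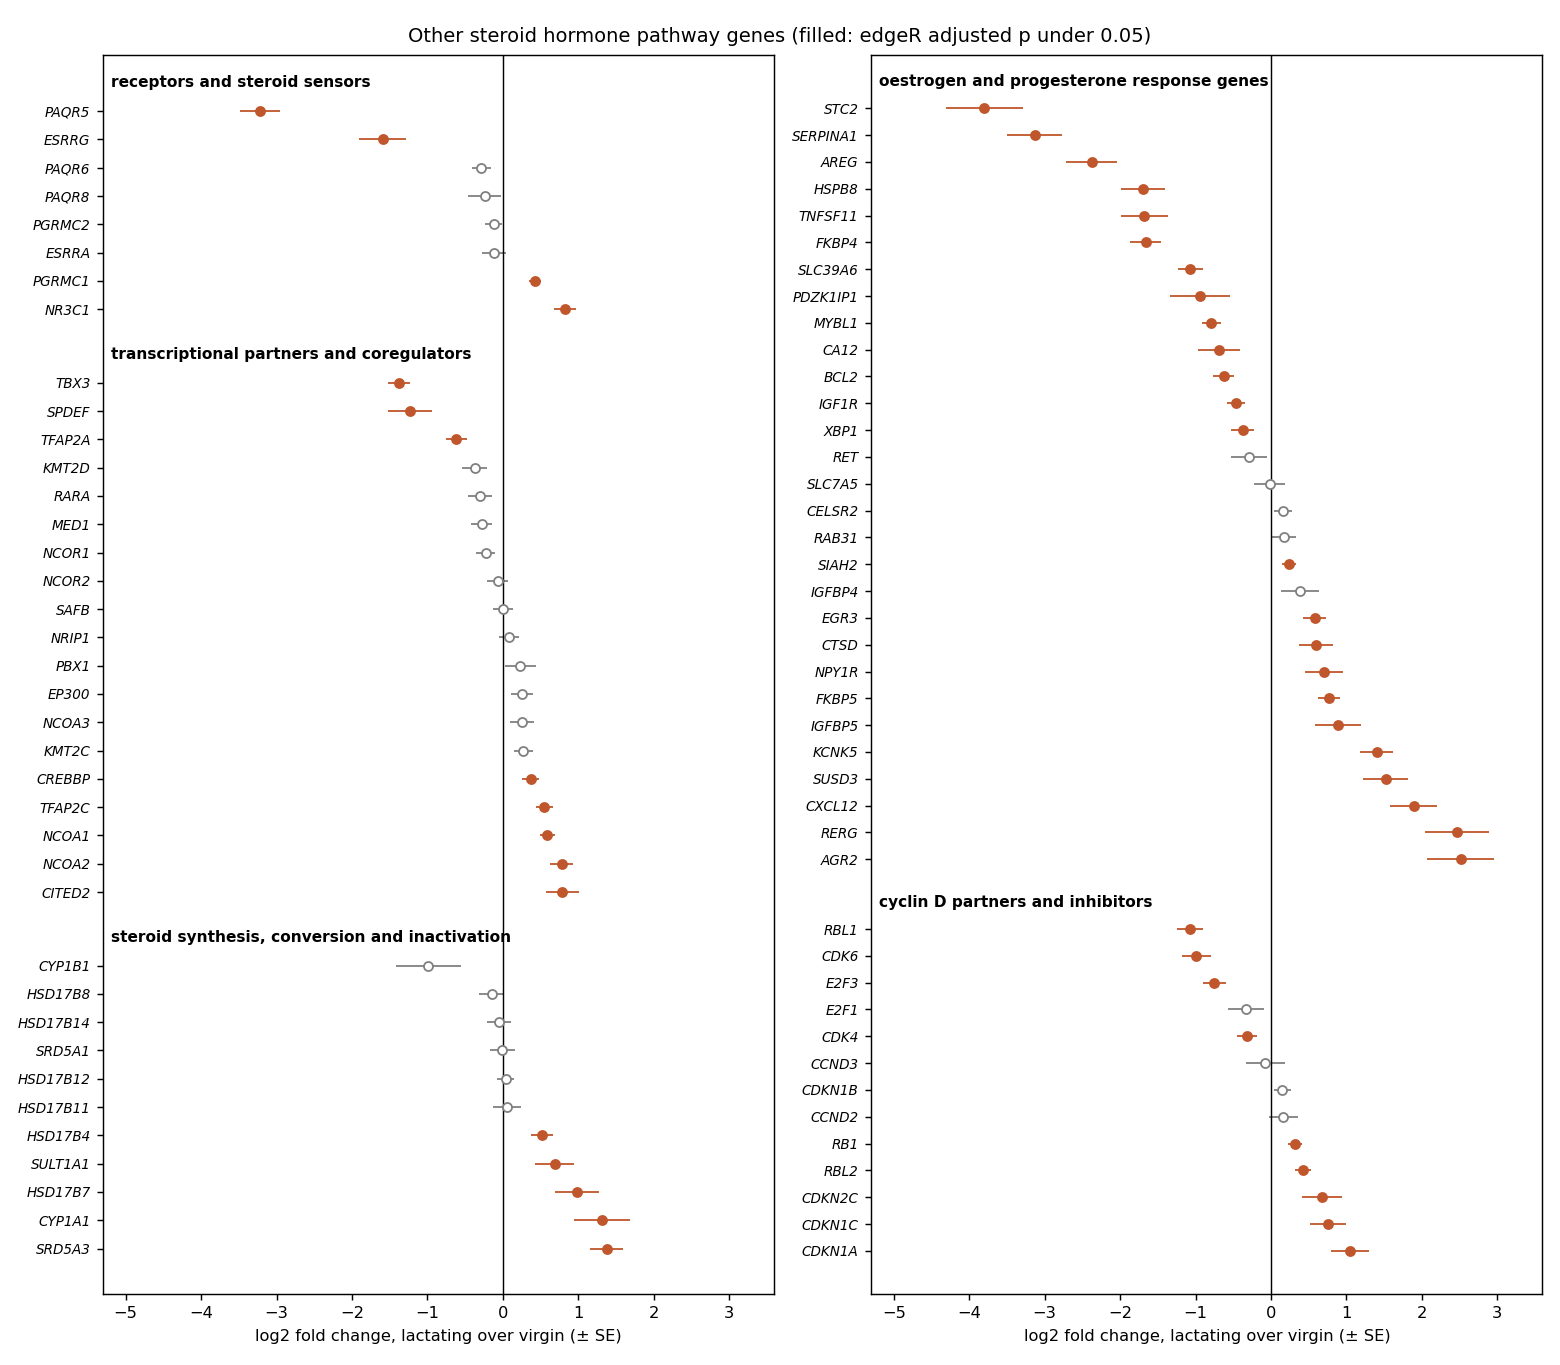
Log2 fold change of lactating over virgin libraries with its SE for the reported genes of the 5 other pathway lists. Filled points passed the edgeR test at an adjusted p under 0.05. The lists hold rises and falls together, with STC2 (-3.80) and SERPINA1 (-3.13) at one end and AGR2 (2.52) and RERG (2.47) at the other.

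Of 29 further oestrogen and progesterone response genes, 11 were higher, 13 lower and 5 not called. STC2, a secreted stanniocalcin, averaged 0.657 ± 0.632 CPM in lactating and 9.34 ± 9.21 CPM in virgin libraries, and its log2 fold change was -3.80 ± 0.51 (edgeR adjusted p = 2.7e-07). SERPINA1, a protease inhibitor, fell by 3.13 ± 0.37, with a locus of 6.11 RefSeq spans. AREG, the growth factor amphiregulin that carries the oestrogen signal to neighbouring cells in mice, fell by 2.38 ± 0.34, and TNFSF11, the progesterone-induced factor RANKL, had a log2 fold change of -1.68 ± 0.32 (edgeR call, lower) at 0.178 CPM in lactating and 0.581 CPM in virgin libraries. These last 2 were picked for mention after their values were seen. In the other direction, AGR2, a protein of the endoplasmic reticulum, rose by 2.52 ± 0.44 and was higher in 11 of 15 animals. RERG, a small GTPase, rose by 2.47 ± 0.43 and was higher in 15 of 15 (edgeR adjusted p = 1.25e-05).

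Of 11 genes of steroid synthesis and inactivation, 5 were called higher and 0 lower by the edgeR test. The gene CYP1B1, an oestrogen hydroxylase, was lower at an unadjusted p under 0.05 and was called by DESeq2 and by limma-voom (1 gene each). SRD5A3, a polyprenol reductase with a locus of 3.23 RefSeq spans, rose by 1.38 ± 0.22, and CYP1A1, another oestrogen hydroxylase, by 1.31 ± 0.37, a call lost without TMM scaling. Of 13 partners and inhibitors of D-type cyclins, 5 were higher, 4 lower and 4 not called. CDK6, the kinase that cyclin D1 activates, fell by 0.99 ± 0.19, and RBL1, a relative of the retinoblastoma protein, by 1.08 ± 0.17 with a locus of 2.71 RefSeq spans. CDKN1A, the inhibitor p21, averaged 624 ± 184 CPM in lactating and 301 ± 249 CPM in virgin libraries and rose by 1.05 ± 0.26 (edgeR adjusted p = 8.18e-04), with its reads listed identically under a further identifier. CDKN1C, the inhibitor p57, rose by 0.76 ± 0.24, a call lost without TMM scaling and without the 5 animals whose virgin title carries a letter.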

How the data were processed

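Poly-A RNA of organoids from 16 cows was sequenced in strand-specific libraries with spike-in RNA added, per the labels' protocols. The values used were the read counts per gene, which the authors deposited as whole numbers without normalization. A further deposited table held RPKM values with the authors' log2 fold changes and adjusted p-values, and only its RPKM values were used, to recover locus lengths. The submitters' processing notes name build UMD3.1 and the tools featureCounts 1.5.2, StringTie 1.3.2, HISAT2 2.0, edgeR and SAMtools. No coordinates are printed, since the RefSeq table was of another build.

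Counts were tested with edgeR 4.0.16 in R 4.3.3 (filterByExpr with a minimum count of 10 and minimum total of 15, TMM, robust glmQLFit, glmQLFTest) on 31 libraries with stage as the only term. The SE of a log2 fold change was its absolute value over the square root of the F statistic of this test. DESeq2 1.42.0, limma-voom (limma 3.58.1), other filters, no TMM factors, an animal block and left-out libraries were alternatives. Correlations used log2 CPM (prior count 2) with two-sided permutation tests of 100000 resamples, exact for 9 libraries, adjusted over all rows. There were 4 families of correlations. The steps were tested on simulated data.

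The milk correlation had been planned over 14 libraries. These fell into separate ranges, so the 9 with over 20% are reported and the 14 and 16 are alternatives. The replicate number is the animal, so it pairs the stages. After removal of stage means the own-animal correlation was 0.0702 to 0.392 (mean 0.221), against a mean of -0.016 with other animals. No libraries of a stage agreed within sampling noise (lowest chi-square per degree of freedom 47.8 lactating, 36.7 virgin). Named pathway genes were the largest 2 rises and 2 falls per list among called genes whose mean log2 CPM was 0 or more. A gene that met this rule is not reported here. The genes and lists were chosen with earlier results of these data known.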

Additional observations from a re-analysis of the deposited data

How the results depend on the processing

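The 10 genes' log2 fold changes between the stages are a description, since the choice used them, and their calls under other settings support nothing. GATA3 stood at -0.21 and TFF3 at 3.13 without TMM factors, PAQR7 at -3.47 with the animal block and -3.34 with limma-voom, and CITED1 was not tested at the 1 CPM filter. Without TMM factors all rows had a median log2 fold change of -0.56, with 1389 rows higher and 7751 lower (15.2% higher, against 43.9% with them), and the other pathway genes stood at 7 higher and 44 lower. With the animal as a replicate block (30 libraries) 3666 rows were higher and 3656 lower, and the pathway counts were 31 and 21. Without the block, the same 30 libraries gave 3081 and 3941. Leaving out 1 library at a time gave 3044 to 3637 rows higher and 3914 to 4307 lower, and 27 to 30 pathway genes higher and 20 to 27 lower.

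The correlations with ESR1 were less stable. The single gene called in virgin libraries became 0 with Spearman's rho, without the 2 farthest libraries and relative to luminal markers. The single gene called in lactating libraries became 0 under these 3, without L478 and L538 and within the 9 libraries of highest milk share. In each of these settings 0 of all 13179 rows were called as well, so the lost calls are not particular to these genes. Without TMM factors 2 genes were called in lactating libraries, against 0.546% of all rows called positive. Fewer libraries entered in the subsets, and the causes of these changes were not tested. With milk protein counts, 1 of the 10 genes was positive (TFF3, r = 0.73) over 14 lactating libraries, against 10.1% of all rows. Over 16 libraries 1 was positive, against 17.8% of all rows, and 2 were negative (FOXA1, GATA3), against 17.4%, so these counts are near the share of all rows. Counts of a few reads limit CITED1, PAQR7, GREB1 and PDZK1 in lactating libraries. The subsets without L478 and L538, without V509 and V502, the 30 libraries without a block and the 9 libraries for ESR1 were added after the data were seen.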
